A study of Mus musculus with 8 samples.

Results

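The genes described here, chosen as those of proteins that build peroxisomes or work inside them, were measured in testis tissue of mice given di-(2-ethylhexyl) phthalate (DEHP), a plasticiser. The choice went by name: 27 listed genes for peroxisomal enzymes, transporters and membrane proteins, and 16 whose array name is Pex followed by a number. Among the 16, the gene the array names Pex2 is now Pex5l and is counted as a peroxisome gene by its array name alone. The 43 genes had 67 of the 41174 probes on the array, and 36 of the 43 were tested, each by its brightest probe. The 4 DEHP mice received 200 mg/kg/day in corn oil by gavage for 21 days, and the 4 vehicle mice received corn oil alone. All were C57BL/6J males, 18 weeks old at the start and 21 weeks old at sampling. Areas rich in Sertoli cells, the somatic cells that support germ cells, were captured by laser from the intermediate layer of the tubule epithelium in sections of the right testis. RNA from a single cap per mouse went through 2 rounds of amplification. Each DEHP mouse was compared with 1 vehicle mouse on 2 arrays with the dyes exchanged, which gave 4 pairings: DEHP mouse 1 with vehicle mouse 2, 2 with 3, 3 with 4, and 4 with 1. A pairing is named by its DEHP mouse.

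Peroxisomes are small organelles that shorten very long and branched fatty acids, make the first bonds of ether lipids and break down hydrogen peroxide. Their proteins, the peroxins (Pex), import finished enzymes from the cytosol, place membrane proteins and divide the organelle. In rodent liver, the metabolite of DEHP activates the nuclear receptor PPAR alpha, which raises genes of peroxisomal fatty acid oxidation and multiplies the organelle. Sertoli cells hold peroxisomes too, and mature sperm have lost theirs.

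The captured areas held RNA of more than 1 cell type. Of the Sertoli markers on the array, 20 of 22 were tested, among them Sox9 and Wt1, while Gata4 and Dmrt1 were not above background often enough. All 12 elongating spermatid markers, all 10 round spermatid markers, 11 of 12 spermatocyte markers and 7 of 11 Leydig cell markers were tested as well. The protocol text of the labels names Leydig cells as the captured cells, whereas the sample labels name Sertoli-cell-rich areas. On each array channel, 49.8% to 59.5% of the spots were well above background and 0 spots were saturated. In tissue of this kind, fewer cells of a type and less RNA per cell cannot be told apart.

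The probes shown here are those of genes with like names and that of Crat, the 1 gene with an unadjusted p under 0.05. The first 30 bases of each 60-base probe are given, as listed in the scanner output.
Crat: caaaatctgtcttcattggtaaatgcccaa
Pxmp3: gaaaaccctggtttcaaatcacattggcaa
Pex2: aacctcggtgacttggatgtcctcctgaga
Acaa1a: ggttgcaaagccatttgtacctttgaggga
Acaa1b: tctgcgtgggacactcagcagtggaggagt
In the mm7 positions of the array design, the Crat probe lies at chr2:30409475-30409534 on the minus strand. The probe the array names Pex2 lies at chr3:32759427-32759486 (minus strand), and its accession now belongs to Pex5l, a relative of the import receptor Pex5. The gene now called Pex2, a peroxin of the ubiquitin ligase ring, is the one the array names Pxmp3, at chr3:5568889-5568948 (minus strand). The thiolase pair Acaa1a, at chr9:119030443-119030499 (plus strand), and Acaa1b, at chr9:118828412-118828471 (minus strand), have near-identical proteins. Their probes shared 21 identical bases in the best ungapped alignment, over 56 bases, so the probes were not copies of each other. Neither probe was compared with the transcript of the other gene, so whether each reads only its own gene was not tested. Exon and UTR annotation of mm7 was not used here.

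PPAR alpha binds, with its partner RXR, to direct repeats of a short motif, so the promoters were searched for those letters on both strands. RefSeq promoters (GRCm38.p6, 250 bases before to 50 after the start) were matched for 31 of the 43 genes, as 38 promoters. The repeat searched was 2 copies of the unit AGGTCA with 1 free base between them, any base being allowed in place of the T of each copy. It was in 0 of these 38 and in 125 of all 32851 promoters (0.381%). The single unit AGGTCA, which can lie within a match to the repeat, was in 4 of the 38 (10.5%), in Cat, Scp2, Phyh and Pex11g, against 16.3% of all promoters. The matches within the bases before the start are shown with the unit in capitals, as the only letters of the motif found there; the match of Phyh lies outside them.
Cat: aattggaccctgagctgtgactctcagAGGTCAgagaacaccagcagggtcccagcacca
Scp2: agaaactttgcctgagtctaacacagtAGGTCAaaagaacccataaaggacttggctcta
Pex11g: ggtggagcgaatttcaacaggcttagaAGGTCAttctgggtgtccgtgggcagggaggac
These stretches lie at chr2:103485325-103485384, chr4:108118624-108118683 and chr8:3467789-3467848, each on the minus strand. A match is a description of the letters in this window.

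None of the 36 tested peroxisome genes differed between DEHP and vehicle mice past the threshold. In limma, 0 had an adjusted p under 0.05 over all 22975 probes tested, where 0% of probes passed, and the smallest adjusted p among the genes was 0.903. At an unadjusted p under 0.05, 0 of the 36 were higher with DEHP, against 2.29% of all probes, and 1 was lower, Crat, against 2.3%. Counted in both directions, it was 0 genes without pairing 1 and 6 without pairing 4. The shares of all probes above belong to the fit of 4 pairings and are not given for these settings, so the counts cannot be set beside them. Mean log2 ratios of DEHP over vehicle ran from -0.32 for Crat to 0.20 for Pex14. The median was -0.0048, beside -0.0021 over all probes, and 16 of 36 genes (44.4%) lay above 0, beside 48.9% of all probes. The medians of the 36 genes in pairings 1 to 4 were 0.079, -0.013, -0.047 and 0.047, with an SD of 0.057.

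**Figure D1:**
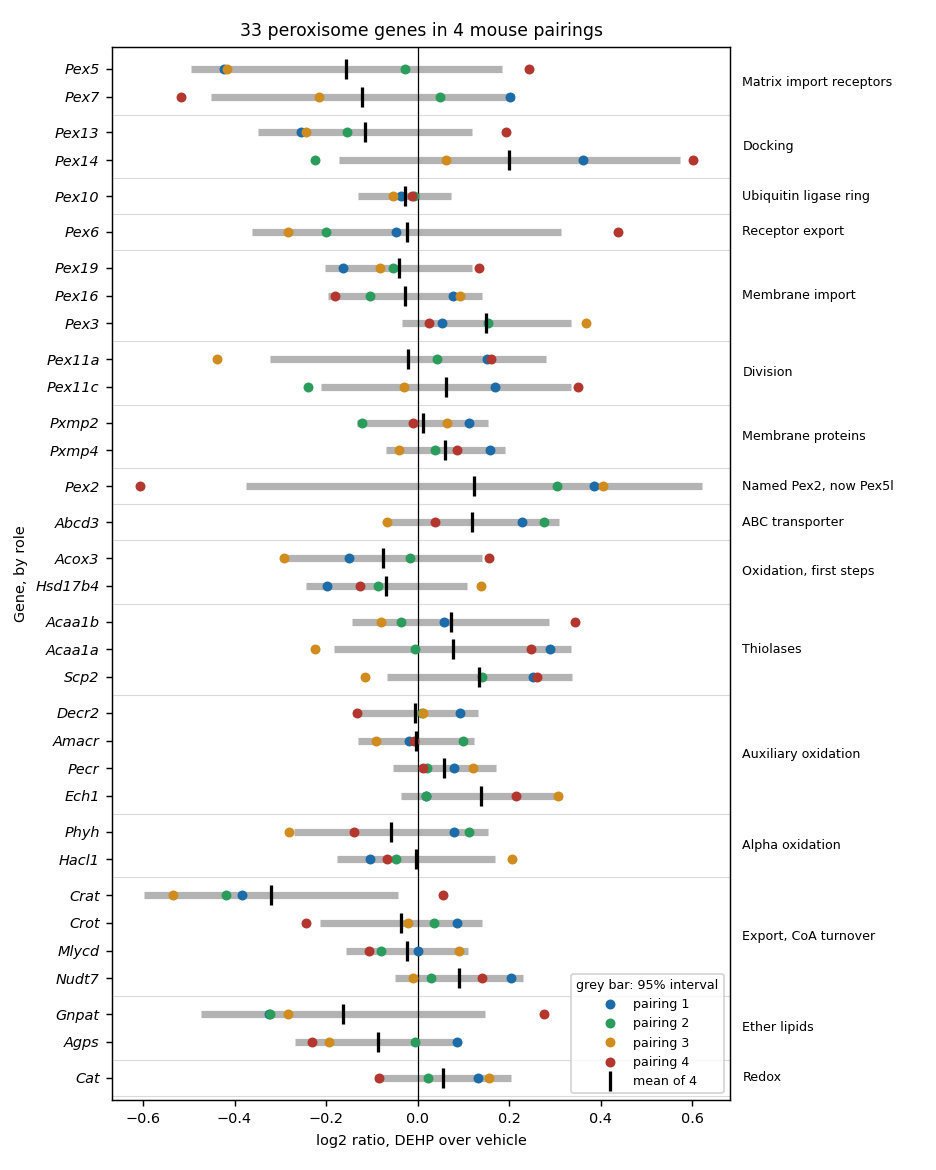
Log2 ratios of DEHP over vehicle for 33 of the 36 tested peroxisome genes, grouped by role, with 1 coloured point per pairing, a black tick for the mean of 4 pairings and a grey bar for its 95% confidence interval. The interval of Crat alone does not cross 0, and the red points of pairing 4 often lie on the other side of 0 from the rest.

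The intervals show how large a difference the fit left possible on the brightest probe of each gene, and they depend on the processing. For 34 of the 36 genes the 95% confidence interval of the ratio lay within 1.5-fold in either direction, and for all 36 it lay within 2-fold. The exceptions to the narrower bound were Crat, with an interval from 0.661-fold to 0.971-fold, and the gene named Pex2 (now Pex5l), with 0.771-fold to 1.54-fold. Over all probes, 93.6% had an interval within 1.5-fold. The background correction used, with an offset of 50, pulls ratios of dim probes toward 0. With the ratios computed by the scanner's software, 29 of the 36 intervals lay within 1.5-fold and all 36 within 2-fold, with bounds from 0.554-fold to 1.64-fold. With median centring, 30 of the 36 lay within 1.5-fold and all 36 within 2-fold, with bounds from 0.678-fold to 1.87-fold. A dimmer probe of Pex13, described below, had an interval from 0.594-fold to 0.977-fold.

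**Figure D2:**
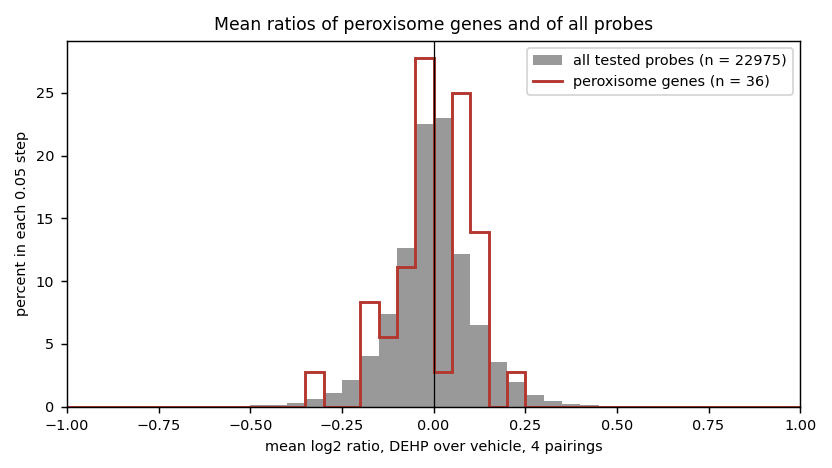
Percent of genes or probes in each 0.05 step of the mean log2 ratio of DEHP over vehicle, for the 36 peroxisome genes (red line) and all 22975 tested probes (grey). Both are centred near 0, with medians of -0.0048 and -0.0021.

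The other 7 genes could not be tested because they were not well above background in at least 4 of the 8 channels of either group. Ehhadh, the bifunctional enzyme of peroxisomal beta oxidation, was well above background in 1 of 8 DEHP and 1 of 8 vehicle channels. Abcd4, an ATP-binding cassette transporter, also had 1 and 1. Acox2, the oxidase of branched chains and bile acid precursors, Idh1, an NADPH-forming dehydrogenase, and the transporter Abcd2 had 0 in both groups. Pex26, the membrane anchor of the receptor export machinery, had 2 DEHP and 3 vehicle channels, and Pxmp3 (now Pex2) had 3 and 2. Of the 36 tested genes, 34 were above background in all 16 channels. Pecr had 8 and 7, and Pex10, with 3 of 8 DEHP channels and 6 of 8 vehicle channels, was kept through the vehicle group alone.

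The receptors that carry enzymes into the organelle are Pex5, for proteins with the common signal at their end, and Pex7, for those with a signal near their start. The log2 ratios of Pex5 were -0.42, -0.03, -0.42 and 0.24 in pairings 1 to 4, a mean of -0.16 ± 0.32 (SD, here and below over the 4 pairings). Those of Pex7 were 0.20, 0.05, -0.22 and -0.52, a mean of -0.12 ± 0.31. In both genes the pairings lay on either side of 0, and the spread exceeded the mean. With the scanner software's ratios, the mean of Pex5 became -0.36 (limma, unadjusted p = 0.13). A second, dimmer probe of Pex5, designed on another transcript record, had a mean of 0.000095 (log2). It lay near background, well above it in 7 of 8 DEHP and 6 of 8 vehicle channels. At such levels the offset pulls ratios toward 0, so this value says little about the gene.

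At the membrane, the receptors dock on Pex13 and Pex14. Pex14 had the highest mean of all 36 genes, with log2 ratios of 0.36, -0.22, 0.06 and 0.60 and a mean of 0.20 ± 0.36 (unadjusted p = 0.23 in limma). Its levels (log2 intensity) were 9.65, 9.08, 9.27 and 9.36 in DEHP mice 1 to 4 and 8.76, 9.29, 9.30 and 9.21 in vehicle mice 1 to 4. Vehicle mouse 1 was the lowest of the 8, and the other 3 vehicle mice lay within the range of the DEHP mice. Pex13 had ratios of -0.26, -0.16, -0.24 and 0.19, a mean of -0.12 ± 0.21.

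A dimmer probe for Pex13, designed on another transcript record (chr11:23605754-23605813, minus strand, mm7), gave a larger difference. It was picked out after its values were seen. Its log2 ratios were -0.25, -0.0018, -0.53 and -0.80, a mean of -0.39 ± 0.34 (limma, unadjusted p = 0.037, adjusted p = 0.903). Levels on this probe were 7.42, 7.64, 7.29 and 7.22 in the DEHP mice and 8.02, 7.67, 7.64 and 7.81 in the vehicle mice. Here the 2 groups did not overlap, by less than 0.01 between DEHP mouse 2 and vehicle mouse 3, and among all probes 1.81% had groups that did not overlap. No brightest probe of the 36 genes had such a separation (0 of 36). Among the dimmer probes, 1 of Pxmp4 also did, in the other direction, with levels of 7.30, 7.26, 7.32 and 7.28 in the DEHP mice and 7.24, 7.21, 7.25 and 7.21 in the vehicle mice. Its mean log2 ratio was 0.06 ± 0.05 (limma, unadjusted p = 0.21). The third probe of Pex13 was not above background in enough channels.

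Pex10 belongs to a ring of ubiquitin ligases that marks the receptors for return to the cytosol. Its log2 ratios were -0.037, -0.0091, -0.053 and -0.013, at a level near background, and the mean of -0.028 became -0.22 with the scanner software's ratios (limma, unadjusted p = 0.15). Pex10 was the 1 gene below 0 in all 4 pairings, where 7.08% of all probes were. Because it was kept through the vehicle channels alone, the filter favoured a ratio below 0, and nothing is read from that count. Pex6, an ATPase that pulls the receptors out of the membrane, had a mean of -0.024 ± 0.32.

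Pex3, Pex16 and Pex19 place membrane proteins in the organelle. Pex3 was above 0 in all 4 pairings, at 0.05, 0.15, 0.37 and 0.02, a mean of 0.15 ± 0.15 (limma, unadjusted p = 0.091). Its levels were 9.42, 9.27, 9.80 and 9.70 in DEHP mice and 9.67, 9.37, 9.12 and 9.43 in vehicle mice, and the groups overlapped. Pex16 and Pex19 had means of -0.028 and -0.042.

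Pex11 proteins elongate and divide peroxisomes, and Pex11a is the form known to respond to PPAR alpha in liver. Pex11a had log2 ratios of 0.15, 0.04, -0.44 and 0.16, a mean of -0.021 ± 0.28. Pex11c (now Pex11g) had 0.17, -0.24, -0.029 and 0.35, a mean of 0.06 ± 0.25. In both genes the pairings disagreed in sign. Of the membrane proteins Pxmp4 and Pxmp2, Pxmp4 had ratios of 0.16, 0.04, -0.04 and 0.09, a mean of 0.06 ± 0.08. That mean became 0.34 with the scanner software's ratios (limma, unadjusted p = 0.072). Pxmp2, a channel protein, had a mean of 0.010, made of 0.26 with Cy5 on the DEHP mouse and -0.24 with Cy3 on it, so the dye orientations opposed each other. Over all 36 genes the orientations had the same sign for 24 (66.7%), beside 57.3% of all probes.

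The gene named Pex2 on the array (now Pex5l) had the widest spread. Its log2 ratios were 0.39, 0.30, 0.41 and -0.61, a mean of 0.12 ± 0.49 (limma, unadjusted p = 0.55). Levels were 15.84, 15.74, 15.94 and 15.39 in the DEHP mice and 16, 15.46, 15.44 and 15.53 in the vehicle mice. DEHP mouse 4 was the lowest and vehicle mouse 1 the highest of the 8, and these are the animals of pairing 4.

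Substrates enter through transporters such as Abcd3, which carries branched and long-chain acyl groups. Abcd3 had log2 ratios of 0.23, 0.28, -0.07 and 0.04, a mean of 0.12 ± 0.16 (limma, unadjusted p = 0.17). The first steps of beta oxidation are run by acyl-CoA oxidases and by multifunctional enzymes. Hsd17b4, the multifunctional enzyme for branched chains, had ratios of -0.20, -0.09, 0.14 and -0.13, a mean of -0.068 ± 0.15. Acox3, an oxidase of branched chains, had a mean of -0.076 ± 0.19.

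Thiolases cut the chain in the last step. All 3 had a mean log2 ratio above 0, none with an unadjusted p under 0.05, though Acaa1b turned to -0.019 without pairing 4 and Acaa1a to -0.0046 as the mean of its probes. Scp2, a thiolase and sterol carrier, had log2 ratios of 0.25, 0.14, -0.12 and 0.26, a mean of 0.13 ± 0.18 (limma, unadjusted p = 0.15). Its mean was 0.017 where Cy5 marked the DEHP mouse and 0.25 where Cy3 did. Its levels were 8.83, 9.10, 8.82 and 8.79 in the DEHP mice and 8.53, 8.57, 8.96 and 8.94 in the vehicle mice. DEHP mouse 2 was the highest, and vehicle mice 3 and 4 lay above the other 3 DEHP mice. Acaa1a had 0.29, -0.0057, -0.22 and 0.25, a mean of 0.08 ± 0.24, and its dimmer probe had a mean of -0.086. On the brighter probe, the mean was 0.15 with Cy5 on the DEHP mouse and 0.0057 with Cy3 on it. Acaa1b, the form raised by PPAR alpha in liver, had 0.06, -0.036, -0.080 and 0.34, a mean of 0.07 ± 0.19.

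Auxiliary enzymes handle double bonds and methyl branches. Ech1, an isomerase of dienoyl-CoA, was above 0 in every pairing, at 0.02, 0.02, 0.31 and 0.21, a mean of 0.14 ± 0.15 (limma, unadjusted p = 0.098). Its levels were 9.30, 9.11, 9.23 and 9.14 in the DEHP mice and 8.92, 9.28, 9.09 and 8.92 in the vehicle mice, and vehicle mouse 2 lay within the DEHP range. The mean came from 1 dye orientation: -0.018 where Cy5 marked the DEHP mouse and 0.30 where Cy3 did. Pecr, a reductase of enoyl-CoA, was also above 0 in all 4, by 0.01 to 0.12. With Pex3, these made 3 of 36 genes above 0 in all 4 pairings (8.33%, beside 6.56% of all probes). Decr2 and Amacr had means of -0.0050 and -0.0046.

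Alpha oxidation removes single carbons from methyl-branched acids. Phyh, its hydroxylase, had log2 ratios of 0.08, 0.11, -0.28 and -0.14, a mean of -0.057 ± 0.19, and Hacl1, its lyase, a mean of -0.0038 ± 0.14. Both lay above 0 with no background correction, at 0.04 and 0.0079. Cat, the catalase that breaks down hydrogen peroxide, had ratios of 0.13, 0.02, 0.16 and -0.084, a mean of 0.06 ± 0.11. Its mean was -0.0081 where Cy5 marked the DEHP mouse and 0.12 where Cy3 did. Its levels were 7.40, 7.34, 7.47 and 7.33 in the DEHP mice and 7.42, 7.26, 7.32 and 7.31 in the vehicle mice, so the groups overlapped.

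Products leave as carnitine esters or are freed from coenzyme A. Crat, the carnitine acetyltransferase of peroxisomes and mitochondria, had the lowest mean ratio. Its levels were 12.25, 12.13, 12.25 and 12.00 in DEHP mice 1 to 4 and 11.94, 12.64, 12.54 and 12.79 in vehicle mice 1 to 4. Vehicle mice 2, 3 and 4 lay above every DEHP mouse and vehicle mouse 1 lay below all of them. The log2 ratios were -0.38, -0.42, -0.53 and 0.06, a mean of -0.32 ± 0.26 or 0.801-fold (limma, unadjusted p = 0.031, adjusted p = 0.903). The sign was the same in both dye orientations, -0.43 where Cy5 marked the DEHP mouse and -0.21 where Cy3 did. With median centring of the arrays in place of loess, the mean was -0.18 (limma, unadjusted p = 0.27). Leaving out pairing 1, 2, 3 or 4 gave an unadjusted p of 0.094, 0.10, 0.11 or 0.0011 in limma. Crot, which makes the longer carnitine esters, had a mean of -0.036 ± 0.15, Nudt7, a coenzyme A hydrolase, 0.09 ± 0.10, and Mlycd, malonyl-CoA decarboxylase, -0.024 ± 0.09.

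Gnpat and Agps make the first bonds of ether lipids. Gnpat had log2 ratios of -0.33, -0.32, -0.28 and 0.28, a mean of -0.16 ± 0.29 (limma, unadjusted p = 0.23). Levels were 13.94, 13.84, 13.95 and 14.18 in the DEHP mice and 13.91, 14.26, 14.16 and 14.23 in the vehicle mice. As for Crat, vehicle mouse 1 was the lowest of its group, and here DEHP mouse 4 was also the highest of its own. Agps had a mean of -0.087 ± 0.15.

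**Figure D3:**
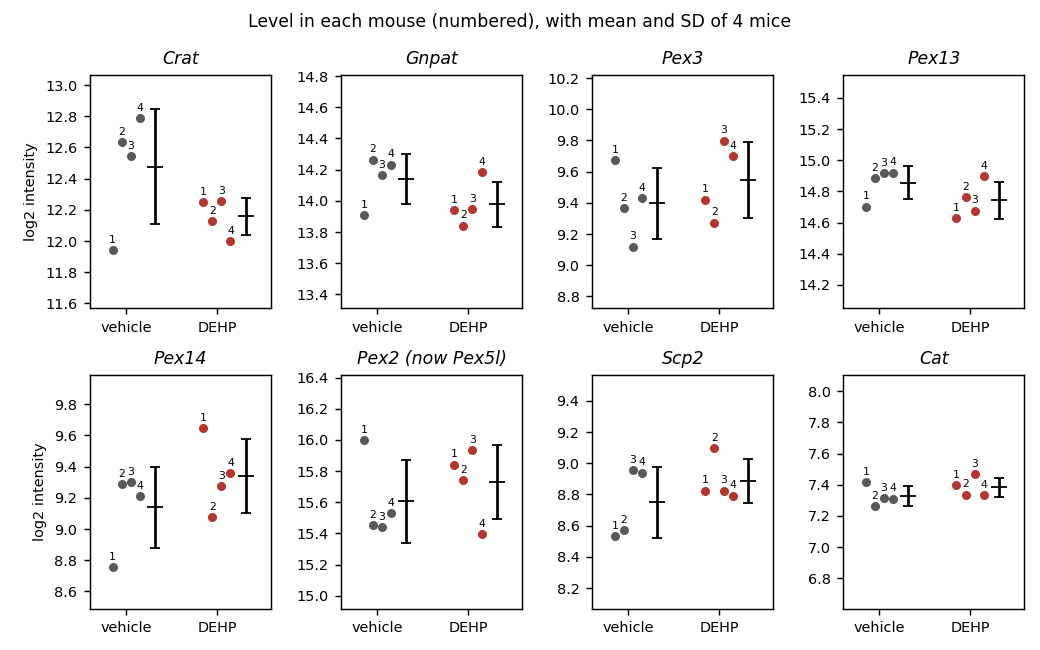
Level (log2 intensity, y axis) of 8 peroxisome genes in the vehicle mice (grey) and DEHP mice (red), each point numbered by mouse and averaged over the mouse's 2 array channels, with the mean and SD of 4 mice in black. The panels share 1 span of the y axis; vehicle mouse 1 stands apart from the other vehicle mice in Crat, Gnpat, Pex13, Pex14 and Pex2, and in no panel do the groups separate.

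Pairing 4 had the opposite sign to the other 3 pairings for 11 of the 36 genes (30.6%), beside 20.1% of all probes; pairing 3 was opposed for 7 (19.4%, beside 8.81%), pairing 2 for 3 (8.33%, beside 14.4%) and pairing 1 for 1 (2.78%, beside 9.07%). Among the 11 were Crat, Gnpat, Pex5, Pex13 and Pex2. For such genes, leaving out the opposed pairing moves the mean away from 0 and narrows the spread by construction. Without pairing 4, these 5 were among the 6 genes with an unadjusted p under 0.05 in limma. Their mean log2 ratios were then -0.45, -0.31, -0.29, -0.22 and 0.37. Past the adjusted threshold there were 0 of 36 (smallest adjusted p 0.555 in limma). The share of all probes at that unadjusted p is not given for this setting, so nothing is read from the count. Spermatid markers also differed by pairing. The median log2 ratio of round spermatid markers was 0.11, 0.15, -0.19 and -0.28 in pairings 1 to 4. That of elongating spermatid markers was -0.51, 0.07, 0.12 and 0.26. The medians of the other germ cell lists spread less. They were -0.0068, 0.091, -0.012 and 0.0014 for spermatocyte markers, and -0.049, 0.099, -0.019 and -0.058 for spermatogonia markers. Summed levels (log2) of the round spermatid markers ran from 17.09 to 17.26 in the DEHP mice and from 17.06 to 17.58 in the vehicle mice, the highest being vehicle mouse 1. Those of the elongating spermatid markers ran from 19.6 to 20.09 and from 19.64 to 20.12, those of the Sertoli markers from 15.79 to 16.19 and from 15.56 to 16.07, and those of the Leydig markers from 11.85 to 13.57 and from 11.93 to 13.56. The part of these cell types in the peroxisome values was not tested.

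**Figure D4:**
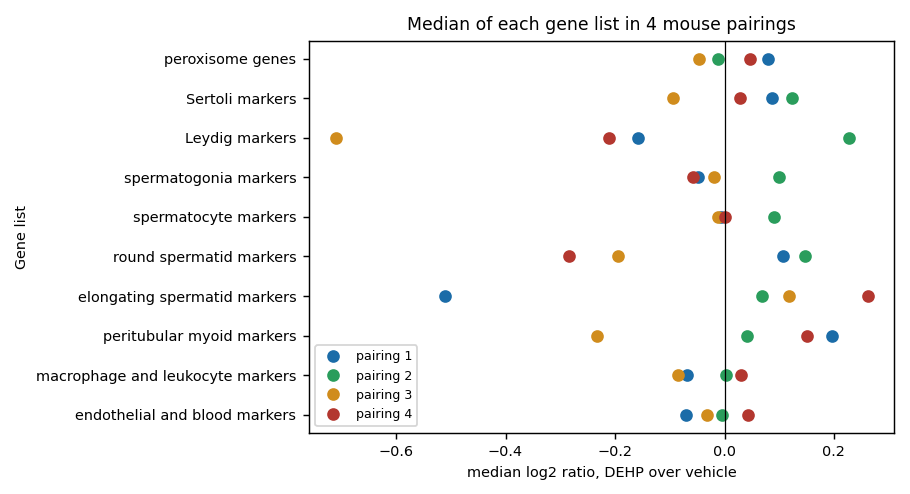
Median log2 ratio of DEHP over vehicle in each of the 4 pairings (coloured points) for the 36 peroxisome genes and for 9 lists of cell type markers. The peroxisome medians run from -0.047 to 0.079, and the Leydig and elongating spermatid medians spread more widely, from -0.71 to 0.23 and from -0.51 to 0.26.

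Further genes of the pathway gave no called difference either. Of 53 other peroxisomal genes on the array, 45 were tested and 0 passed the adjusted threshold in limma. At an unadjusted p under 0.05, 2 were higher and 0 lower, and the median log2 ratio was 0.02. The 2 were Peci (now Eci2), an isomerase of enoyl-CoA, with 0.54, 0.24, 0.15 and 0.16, a mean of 0.27 ± 0.18 (limma, unadjusted p = 0.019), and Idi1, an isomerase of isoprenoid synthesis, with a mean of 0.16 ± 0.11 (limma, unadjusted p = 0.041).

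The receptors themselves were measured as well. Of 17 genes for PPAR and RXR receptors and their coactivators, 16 were tested, with 0 higher and 1 lower at an unadjusted p under 0.05, a median of -0.050, and 0 past the adjusted threshold in limma. Ppara had a mean log2 ratio of 0.03 ± 0.21. The smallest p values were those of the acetyltransferases Ep300, with a mean of -0.15 ± 0.10 (limma, unadjusted p = 0.039), and Crebbp, with -0.28 ± 0.26 (limma, unadjusted p = 0.052). Of 37 PPAR alpha targets outside the peroxisome, 32 were tested, with 0 higher, 0 lower and a median of -0.024. The lipid droplet genes Cidec and Cidea led them, with means of 0.18 ± 0.17 and 0.35 ± 0.38 (limma, unadjusted p = 0.072 for each). Each share of these lists stands beside the 2.29% higher and 2.3% lower among all probes.

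Ratios in the authors' deposited table were listed for 22 of the 36 genes. In the authors' deposited table the lowest mean log2 ratio over the pairings was that of Pex5, at -0.32, and the highest that of Pxmp4, at 0.27. Refitted with limma, 0 of the 22 had an unadjusted p under 0.05, with a median of 0.03, and Crat was not among those listed. Of the 22 genes, 19 had the same sign there as in the ratios described above.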

How the data were processed

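Agilent Feature Extraction 9.5.1.1 wrote the scanner output, per the file headers, and the deposited intensity of each spot and channel was taken before background subtraction. The software's own log10 ratio (red over green) in these deposited files served as an alternative. The authors also deposited log2 ratios, with limma named in the submitters' processing notes; its version, the background correction and the filter are not given in the sources used here. The direction of that table (DEHP over vehicle) and the spot behind each entry were worked out against the scanner ratios. Its column medians ran from -0.0022 to 0.012.

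Intensities were corrected by normexp (offset 50), normalised by loess within arrays, averaged over a probe's spots, turned to DEHP over vehicle and averaged over both dye orientations. Spots flagged by the software as outliers were left out. Probes well above background in at least 4 of 8 channels of a group were kept, and 14308 current symbols were covered. An intercept over the 4 pairings was fitted with limma 3.58.1 in R 4.3.3 (moderated 2-sided test, Benjamini-Hochberg over all probes). Mouse levels came from Aquantile-normalised channels. The number of arrays limits the precision. Dye orientation and slide cannot be told apart. The fit was also run on simulated data with independent probes and with changes larger than the mean ratios of the peroxisome genes. That run therefore does not show whether differences of the size seen here would be found.

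Of the 36 tested genes, 3 are counted but their own values are not reported here. The genes and lists were chosen with earlier results of these data known. Full values are given for genes with an unadjusted p under 0.05, the smallest p of each role group, and 12 genes fixed by name; other lists give counts and the 2 smallest p. The pairings come from the array labels: each is 1 DEHP and 1 vehicle mouse, and its dye-swapped arrays correlated across probes by r = 0.539 to 0.717.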

Additional observations from a re-analysis of the deposited data

Results flagged for a closer look

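In 7 of 108 groups of 4 values for the peroxisome genes (6.48%), 1 value stood far from the other 3. Its gap to the nearest was over Dixon's 95% critical share of the range. For normally distributed values, chance gives about 1 in 20. The ratios and levels of a gene come from the same mice, so the groups are not independent. The share over all probes was not taken, so nothing is read from the count. In 2 of the 7 groups the value was a ratio in pairing 4: Gnpat at 0.28 against -0.33, -0.32 and -0.28, and Pex2 (now Pex5l) at -0.61 against 0.30 to 0.41. In 3 it was the log2 level of vehicle mouse 1, with Pex13 at 14.70, Pex14 at 8.76 and Pex2 at 16. Mlycd stood at 9.83 in vehicle mouse 2 and Scp2 at 9.10 in DEHP mouse 2. The cause of these values was not tested.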

How the results depend on the processing

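The count of peroxisome genes past the adjusted threshold was 0 under each alternative run. So was the count over all probes, which was not taken for the mean over a gene's probes. The median log2 ratio of the genes ran from -0.015 to 0.047, including the replicate block with a dye term over 8 arrays, which kept the median of -0.0048, 0 adjusted calls and 1 gene (Crat) at an unadjusted p under 0.05. The block changed no other call. That unadjusted count moved from 1 to 2 with median centring (Ech1 and Pex3) and with the mean over all probes of a gene (Crat and Pex13), to 3 with DEHP in Cy5 only (Crat, Pex16, Pxmp2), to 4 with DEHP in Cy3 only (among them Ech1, Pxmp2 and Scp2) and to 0 in the deposited values of 22 genes. Leaving out 1 pairing gave 0 to 6. The share of all probes at an unadjusted p under 0.05 is not given for these settings. The changes in count are therefore not read as particular to the peroxisome genes. The sign of 8 of 36 genes turned without pairing 4 and of 7 with median centring, among them Gnpat (0.010), Hsd17b4 (0.05), Pex11a (0.12), Pex13 (0.08) and Pex16 (0.11). The 2 dye orientations had opposite signs for genes such as Pxmp2, Ech1 and Pex16. Probes near background limit the ratios of dim genes such as Pex10, and 4 mice per group limit the rest.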

Other observations

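Vehicle mouse 1 was the highest or the lowest of the 4 vehicle mice for 26 of the 36 peroxisome genes (72.2%), beside 64.5% of all probes tested. Vehicle mice 2, 3 and 4 were so for 22, 12 and 12 of the genes (61.1%, 33.3% and 33.3%), beside 53.9%, 42.8% and 38.8% of all probes. Among the DEHP mice, mouse 4 was at an end of its group for 23 genes (63.9%), beside 53.8% of all probes.

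Of the 11 peroxisome genes with more than 1 tested probe, 5 had probes that differed in sign, among them Acaa1a, Pex16, Pex19 and Pex5. The 4 probes of Pex11c (now Pex11g) all had a mean log2 ratio above 0, from 0.0076 to 0.092. The probe at 0.0076 lies on the plus strand and the others on the minus strand (mm7). Whether it reads the transcript of Pex11g was not tested. All 4 were read in the same mice, so they are not independent.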
